A study of Mus musculus with 8 samples.

Results

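The 10 genes described here encode carriers that move peptides and amino acids across the absorptive cells of the small intestine. They were chosen by gene symbol in the deposited count table, and all 10 were found among its 55421 genes. From the known location of the proteins, 7 are apical, facing the gut lumen (Slc6a19, Slc15a1, Slc7a9, Slc3a1, Slc1a1, Slc6a20a and Slc36a1). The other 3 are basolateral, facing the blood (Slc7a7, Slc7a8 and Slc3a2).

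Messenger RNA was measured by bulk RNA sequencing of small intestine from Mus musculus labelled WT. The Hypoxia+Nitrate group held 4 libraries from mice kept at 7% O2 for 7 days that also received 4 mM nitrate, and the Hypoxia group held 4 libraries from mice under the same hypoxia without it. All libraries therefore came from hypoxic mice, and a group at normal oxygen was not analysed here. The labels used here leave out strain, sex, age, the part of the small intestine and the route of nitrate. They also do not say whether the libraries are different mice, and the p-values then reflect library spread alone, which may be technical. In bulk tissue, fewer cells of a type and less RNA per cell cannot be told apart.

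Digestion ends at the brush border, the microvilli of the enterocyte, where peptidases leave short peptides and free amino acids. A proton-coupled carrier takes up the short peptides, while sodium-coupled carriers and exchangers take up the amino acids. Basolateral exchangers then pass amino acids to the blood. Several of these exchangers are heterodimers: a light chain of the Slc7 family does the transport and a heavy chain of the Slc3 family brings it to the membrane.

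The libraries differed in content as well as in group. Total counts lay between 8662279 and 63943036 in Hypoxia+Nitrate and between 5345377 and 21835865 in Hypoxia. Genes of the mitochondrial genome that encode proteins took 6.90% to 64.0% of counts in Hypoxia+Nitrate, highest in libraries 1 and 4, and 0.423% to 1.06% in Hypoxia. A ribosomal DNA locus took 2.33% to 22.0% in Hypoxia+Nitrate and 7.06% to 75.7% in Hypoxia. A background level was estimated per library from 1468 odorant, vomeronasal and trace-amine receptor genes, which were assumed to be silent in gut. By this estimate, background made up 2.74% to 23.2% of nuclear protein-coding counts in Hypoxia+Nitrate and 39.0% to 63.6% in Hypoxia. The part of these differences in the results below was not tested beyond the values given beside them.

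The labelled tissue was checked with 10 enterocyte markers, of which 10 of 10 were higher in Hypoxia+Nitrate (edgeR adjusted p under 0.05). Their summed level was 1298 to 45083 CPM (CPM being counts scaled to library size, here with TMM factors) in Hypoxia+Nitrate and 51.1 to 824 CPM in Hypoxia, and no marker was at 0 in a whole group. The enterocyte markers thus rose along with 7 of the 10 transporters described below, and the part of the markers in the transporter results was not tested. Among markers of other cells, 3 of 3 Paneth cell and 4 of 4 smooth muscle genes rose, as did 1 of 4 goblet cell and 2 of 5 leukocyte genes. For all these marker counts, 11.7% of all genes tested and 18.5% of nuclear protein-coding genes were called higher. The goblet cell count is near the latter share. Smooth muscle genes summed to 1119 to 2357 CPM in Hypoxia+Nitrate and 53.7 to 363 CPM in Hypoxia. The protocol text mentions islets, and 0 of 5 islet genes passed, with summed levels of 1.85 to 32.2 CPM in Hypoxia+Nitrate and 15.8 to 19.3 CPM in Hypoxia.

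Promoter windows of 250 bases before each RefSeq start site (GRCm38.p6) were found for all 10 genes, 15 windows in all. They were searched on both strands for words known from intestinal or stress-responsive factors. The words were TTAAT, any base, ATTA (the palindromic core) and GTTAAT for HNF1, CAAAGTCCA for HNF4, AGATAA for GATA factors, TTTATTG for CDX2, TATAAA for the TATA box, GGGCGG for Sp1, ACGTG for HIF and TGATGNAA for ATF4. The first 2 words can share bases. Shown here, 5′ to 3′ with the matched words in capitals, are the windows of the gene with the largest fold change (Slc6a19), of the light and heavy chain of the apical heterodimer (Slc7a9 and Slc3a1), of a basolateral light chain (Slc7a8), and of an apical carrier that did not pass the test (Slc1a1).
Slc6a19, chr13:73692637-73692886, minus strand: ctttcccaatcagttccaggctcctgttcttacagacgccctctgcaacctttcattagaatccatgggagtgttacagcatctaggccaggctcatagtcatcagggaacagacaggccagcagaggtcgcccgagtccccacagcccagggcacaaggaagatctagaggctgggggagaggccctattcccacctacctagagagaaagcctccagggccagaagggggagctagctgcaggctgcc
Slc7a9, chr7:35448842-35449091, plus strand: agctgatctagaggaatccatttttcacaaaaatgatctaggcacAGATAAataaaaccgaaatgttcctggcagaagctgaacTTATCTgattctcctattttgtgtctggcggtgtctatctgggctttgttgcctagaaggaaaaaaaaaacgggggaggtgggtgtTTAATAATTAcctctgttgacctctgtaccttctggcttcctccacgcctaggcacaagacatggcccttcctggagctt
Slc3a1, chr17:85028097-85028346, plus strand: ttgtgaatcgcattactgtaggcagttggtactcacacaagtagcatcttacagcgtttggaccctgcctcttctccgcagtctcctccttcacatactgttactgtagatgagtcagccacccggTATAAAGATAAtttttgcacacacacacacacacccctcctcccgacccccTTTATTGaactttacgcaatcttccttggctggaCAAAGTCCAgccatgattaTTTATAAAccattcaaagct
Slc7a8, chr14:54781887-54782136, minus strand: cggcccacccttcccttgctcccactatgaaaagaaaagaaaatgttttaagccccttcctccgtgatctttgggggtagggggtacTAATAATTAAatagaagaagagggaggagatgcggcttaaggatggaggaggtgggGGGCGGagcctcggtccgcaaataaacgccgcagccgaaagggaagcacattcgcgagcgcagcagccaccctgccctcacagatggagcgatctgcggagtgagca
Slc1a1, chr19:28834885-28835134, plus strand: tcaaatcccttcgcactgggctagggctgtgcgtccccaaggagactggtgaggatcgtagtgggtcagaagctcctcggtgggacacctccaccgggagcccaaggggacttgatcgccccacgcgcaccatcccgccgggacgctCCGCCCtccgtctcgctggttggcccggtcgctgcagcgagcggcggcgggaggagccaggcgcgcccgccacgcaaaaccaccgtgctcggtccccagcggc

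The longer HNF1 word was found in 3 of the 15 windows, from 2 genes, Slc7a9 and Slc7a8, and in 0.387% of all 32851 promoter windows. The 2 windows of Slc7a9 overlap and share the match, which begins 80 bases before the start site in the window shown. The HNF4 word was found in Slc3a1 alone among the 10 genes, 39 bases before the start site, and in 0.384% of all windows. Slc3a1 also held the CDX2 word, present in 4.2% of all windows. Its TATA matches began 124, 20 and 18 bases before the start site, and the one at 124 shares bases with a GATA word. The TATA and GATA words were in 12.4% and 9.99% of all windows. The windows of Slc6a19 and Slc15a1 held none of the words. The Slc6a19 window lies inside the span of the gene, whose 5′ end is at 73704865, and bases before that end were not searched. The same holds for the Slc3a2 window (8713898 to 8714147), the 5′ end of that gene being at 8723369. Both Slc7a9 windows (35448842 to 35449091 and 35448929 to 35449178) also lie inside the gene, whose 5′ end is at 35448796. The matches in Slc7a9 are therefore after that end. Of the Slc7a7 windows, those at 54409473 to 54409722 and 54410204 to 54410453 lie inside the gene, whose 5′ end is at 54417780. The window of Slc1a1 was 70.4% G and C, against a median of 52.4% over all windows, and held the Sp1 word, as did 32.7% of all windows. The remaining words were in 6.43% (GTTAAT), 16.6% (ACGTG) and 3.45% (TGATGNAA) of all windows. Among the 10 genes, GTTAAT was found in 3, ACGTG in 2 and TGATGNAA in 1. A match describes the letters and is no evidence of binding.

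Of the 10 transporters, all of which passed the filter on low counts, 7 rose in Hypoxia+Nitrate, 0 fell and 3 did not pass (edgeR quasi-likelihood test, adjusted p under 0.05 over 35431 genes). Among all genes tested, 24.4% were called, 11.7% higher and 12.7% lower. Among nuclear protein-coding genes, 18.5% were called higher and 9.75% lower. The median log2 fold change of the 10 was 2.70, against −0.58 over all genes tested. The log2 fold changes ran from 0.26 for Slc36a1 to 4.80 for Slc6a19. When only library size was scaled, 0 of 10 passed and 8 of 10 were above 0, with a median of 1.11 against −1.07 over all genes. In that fit 0.686% of all genes tested were called higher. The count of 7 fell to 0 without Hypoxia 1, to 3 without Hypoxia 3 and to 2 without Hypoxia 4. Of all genes tested, 1.95%, 4.16% and 4.23% were called higher in these 3 fits, against 11.7% in the main fit. The count was 3 when Hypoxia+Nitrate 1 and 4, whose mitochondrial share was highest, were both left out (10.1% of all genes higher). It was 0 after the expected background was subtracted (limma-voom, 4.23% of all genes higher).

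**Figure D1:**
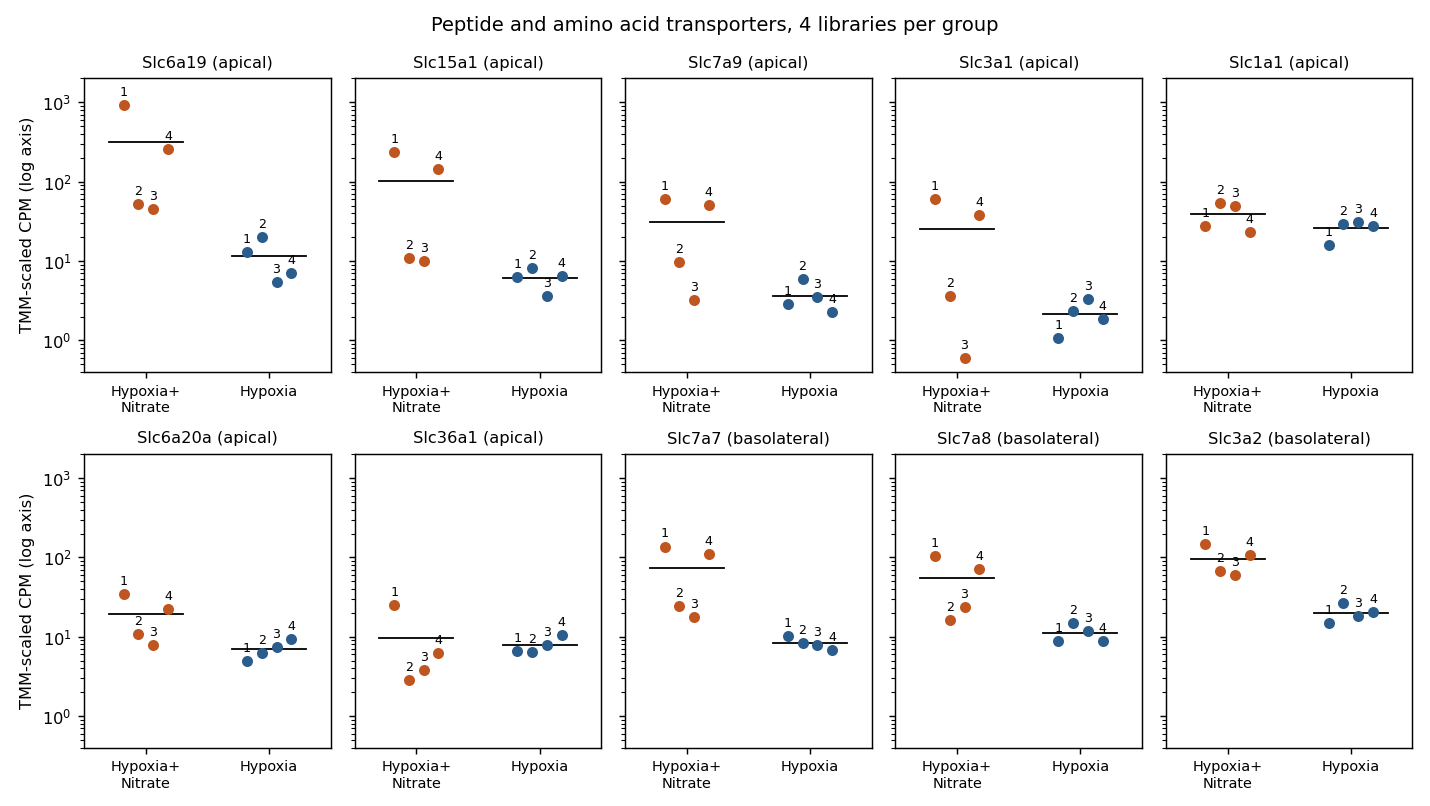
Level of each transporter in every library, as TMM-scaled CPM on a log axis; points are libraries numbered by replicate, and black lines are group means (n = 4). Hypoxia+Nitrate 1 and 4 hold the 2 highest values for 8 of the 10 genes, while Slc1a1 is highest in Hypoxia+Nitrate 2 and 3.

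Slc6a19 encodes B0AT1, the main sodium-coupled carrier of neutral amino acids on the brush border (chromosome 13, 73679745 to 73704865, minus strand, GRCm38). It held 929, 51.6, 45.1 and 255 CPM in Hypoxia+Nitrate 1 to 4, against 13.2, 20.2, 5.48 and 7.11 CPM in Hypoxia 1 to 4. Every Hypoxia+Nitrate library was above every Hypoxia library, and libraries 1 and 4 were far above 2 and 3. Slc6a19 rose by a log2 fold change of 4.80 (SE 1.09, edgeR adjusted p = 0.0129). The groups also did not overlap on library-size CPM, nor as a share of nuclear protein-coding counts. Without Hypoxia 1 the edgeR adjusted p of Slc6a19 was 0.0574, and without Hypoxia 4 it was 0.0508. Without Hypoxia+Nitrate 1 the log2 fold change was 3.36 (edgeR adjusted p = 0.0188), and without Hypoxia+Nitrate 1 and 4 it was 2.14 (edgeR adjusted p = 0.0203). Scaled by library size alone, Slc6a19 had a log2 fold change of 3.11 (edgeR adjusted p = 0.0507).

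Slc15a1 encodes PEPT1, which carries dipeptides and tripeptides together with protons (chromosome 14, 121459621 to 121505252, minus strand). It held 237, 10.97, 9.91 and 145 CPM in Hypoxia+Nitrate 1 to 4, against 6.27, 8.22, 3.64 and 6.44 CPM in Hypoxia 1 to 4. The groups did not overlap, but Hypoxia+Nitrate 2 and 3 lay close to Hypoxia 2. Slc15a1 rose by a log2 fold change of 4.03 (SE 1.01, edgeR adjusted p = 0.0182). With CPM taken over nuclear protein-coding counts alone the groups overlapped, at 38.6 and 32.9 CPM in Hypoxia+Nitrate 2 and 3 and 40.1 CPM in Hypoxia 2. Without Hypoxia+Nitrate 1 the log2 fold change of Slc15a1 was 3.18 (edgeR adjusted p = 0.0352), and without Hypoxia+Nitrate 1 and 4 it was 0.84 (edgeR adjusted p = 0.138). Without Hypoxia 1, 3 or 4 the edgeR adjusted p was 0.0692, 0.0649 or 0.0581.

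Slc7a9 and Slc3a1 encode the light chain (b0,+AT) and heavy chain (rBAT) of the apical exchanger that takes up cystine and cationic amino acids. In humans, loss of either chain causes cystinuria. Slc7a9 (chromosome 7, 35448796 to 35466036, plus strand) held 61.3, 9.67, 3.27 and 51.3 CPM in Hypoxia+Nitrate 1 to 4, against 2.87, 5.89, 3.48 and 2.29 CPM in Hypoxia 1 to 4. Slc3a1 (chromosome 17, 85028376 to 85064236, plus strand) held 59.8, 3.64, 0.599 and 38.3 CPM in Hypoxia+Nitrate 1 to 4, against 1.07, 2.33, 3.37 and 1.87 CPM in Hypoxia 1 to 4. For both chains Hypoxia+Nitrate 1 and 4 stood above the other 6 libraries, and Hypoxia+Nitrate 3 lay within or below the Hypoxia range. Of the exonic length of Slc3a1, 73.5% is free of other genes, the rest being shared with Prepl, so reads there are uncertain.

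Slc7a9 rose by a log2 fold change of 3.11 (SE 0.834, edgeR adjusted p = 0.0230), and Slc3a1 by 3.56 (SE 1.11, edgeR adjusted p = 0.0392). The call of Slc3a1 was lost when any of 6 single libraries was left out, all except Hypoxia+Nitrate 2 and 3 (edgeR adjusted p = 0.0670 to 0.121). Its log2 fold change was 2.73 without Hypoxia+Nitrate 1 and 4.16 without Hypoxia+Nitrate 3. The call of Slc7a9 was lost without Hypoxia 1, 3 or 4 (edgeR adjusted p = 0.0832, 0.0742 and 0.0713). Without Hypoxia+Nitrate 1 and 4 the log2 fold changes were 0.88 for Slc7a9 (edgeR adjusted p = 0.267) and 0.02 for Slc3a1 (edgeR adjusted p = 0.986).

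The other 3 apical carriers did not pass, which does not show that they were equal in the groups, since the spread between libraries was wide. Slc6a20a, a sodium-coupled carrier of proline and other imino acids (chromosome 9, 123634770 to 123678885, minus strand), held 35.0, 10.9, 7.84 and 22.6 CPM in Hypoxia+Nitrate 1 to 4, against 5.01, 6.18, 7.48 and 9.27 CPM in Hypoxia 1 to 4. Only Hypoxia+Nitrate 3 fell inside the Hypoxia range. Its log2 fold change was 1.45 (SE 0.517, edgeR adjusted p = 0.0626), and −0.03 with library size only. Without Hypoxia+Nitrate 2 or 3 it passed (edgeR adjusted p = 0.0203 and 0.0156), as it did with no filter on low counts (edgeR adjusted p = 0.0408). Its exons overlap those of Ccr9 and 2 predicted genes, with 85.7% of the length free of them.

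Slc1a1 encodes EAAC1 (also EAAT3), the sodium-coupled carrier of glutamate and aspartate (chromosome 19, 28835049 to 28913960, plus strand). It held 27.3, 54.4, 49.7 and 23.2 CPM in Hypoxia+Nitrate 1 to 4, against 16.1, 29.5, 30.7 and 27.8 CPM in Hypoxia 1 to 4. Unlike the other genes described above, Slc1a1 was higher in Hypoxia+Nitrate 2 and 3 than in 1 and 4, and the latter lay inside the Hypoxia range. The log2 fold change of Slc1a1 was 0.57 (SE 0.444, edgeR adjusted p = 0.341), and −0.65 after background subtraction (limma-voom adjusted p = 0.443). On library-size CPM the gap within the group was wider, with 6.01 and 9.10 CPM in Hypoxia+Nitrate 1 and 4 and 89.3 and 106 CPM in Hypoxia+Nitrate 2 and 3. The Hypoxia libraries held 12.1, 18.6, 109 and 50.7 library-size CPM. The exons of Slc1a1 share bases with 4430402I18Rik, and 68.1% of their length is free of it.

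Slc36a1 encodes PAT1, a proton-coupled carrier of small amino acids such as glycine and proline that also sits on lysosomes (chromosome 11, 55204350 to 55236330, plus strand). It held 25.2, 2.84, 3.81 and 6.24 CPM in Hypoxia+Nitrate 1 to 4, against 6.68, 6.40, 7.96 and 10.7 CPM in Hypoxia 1 to 4. Hypoxia+Nitrate 1 was above all Hypoxia libraries and the other 3 were below them. The log2 fold change of Slc36a1 was 0.26 (SE 0.661, edgeR adjusted p = 0.778) and its sign depended on scaling, at 0.12 for RLE, −0.11 for upper-quartile scaling and −1.48 when only library size was used. Without Hypoxia+Nitrate 1 it was −0.87 (edgeR adjusted p = 0.198).

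All 3 basolateral genes rose with TMM scaling, and none passed with library size only. Slc7a7 encodes y+LAT1, the light chain that exports cationic amino acids such as lysine and arginine in exchange for neutral ones and sodium, and its loss in humans causes lysinuric protein intolerance. It lies on chromosome 14 (54369442 to 54417780, minus strand) and held 137, 24.7, 17.7 and 111 CPM in Hypoxia+Nitrate 1 to 4, against 10.2, 8.44, 7.90 and 6.87 CPM in Hypoxia 1 to 4. Every Hypoxia+Nitrate library was above every Hypoxia library, also on library-size CPM and as a share of nuclear protein-coding counts. Slc7a7 rose by a log2 fold change of 3.12 (SE 0.695, edgeR adjusted p = 0.0119). Without Hypoxia 1 its edgeR adjusted p was 0.0528, and without Hypoxia+Nitrate 1 and 4 its log2 fold change was 1.43 (edgeR adjusted p = 0.0170). Its exons overlap those of Oxa1l, with 93.0% of their length free of it.

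Slc7a8 encodes LAT2, the light chain that exchanges neutral amino acids with the blood side (chromosome 14, 54722209 to 54781946, minus strand). It held 105, 16.2, 24.0 and 72.2 CPM in Hypoxia+Nitrate 1 to 4, against 8.95, 15.0, 11.8 and 8.73 CPM in Hypoxia 1 to 4. The groups were apart by a narrow margin between Hypoxia+Nitrate 2 and Hypoxia 2, and they overlapped on library-size CPM. Slc7a8 rose by a log2 fold change of 2.29 (SE 0.617, edgeR adjusted p = 0.0235). The call was lost without Hypoxia 1, 3 or 4 (edgeR adjusted p = 0.0866, 0.0696 and 0.0725). It was also lost without Hypoxia+Nitrate 1 and 4 (log2 fold change 0.95, edgeR adjusted p = 0.0810).

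Slc3a2 encodes 4F2hc (CD98), the heavy chain that partners both basolateral light chains and is found in most dividing and epithelial cells (chromosome 19, 8706882 to 8723369, minus strand). It held 148, 67.3, 60.5 and 106 CPM in Hypoxia+Nitrate 1 to 4, against 14.8, 26.9, 18.4 and 20.2 CPM in Hypoxia 1 to 4. The groups did not overlap, and the spread within Hypoxia+Nitrate was the narrowest, relative to its mean, among the 7 genes that rose. Slc3a2 rose by a log2 fold change of 2.25 (SE 0.483, edgeR adjusted p = 0.0108). Without Hypoxia 1 its edgeR adjusted p was 0.0552. Of the 10 genes, 5 had groups that did not overlap on TMM-scaled CPM, all higher in Hypoxia+Nitrate, against 12% of all genes tested, with a further 28.8% lower. As a share of nuclear protein-coding counts 3 of the 10 did so (Slc6a19, Slc7a7 and Slc3a2), against 3.85% of all genes tested, with 43.5% lower. On library-size CPM the 3 were Slc6a19, Slc15a1 and Slc7a7, against 3.16%, with 15.6% lower.

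Set against the background estimate, most Hypoxia counts of the apical carriers were low. The ratio of observed to expected background count, summed over the 4 libraries, was 124 in Hypoxia+Nitrate and 2.05 in Hypoxia for Slc6a19, and 42.5 and 1.16 for Slc15a1. For Slc7a9 it was 24.9 in Hypoxia+Nitrate and 1.26 in Hypoxia, and for Slc3a1 31.7 and 1.26. Slc6a20a stood at 11.5 in Hypoxia+Nitrate and 1.92 in Hypoxia, and Slc36a1 at 3.33 and 1.35. Slc1a1 was the exception among the apical carriers in Hypoxia, at 15.1 in Hypoxia+Nitrate and 4.43 in Hypoxia. The basolateral ratios were 50.2 in Hypoxia+Nitrate and 2.55 in Hypoxia for Slc7a7, 22.9 and 2.08 for Slc7a8, and 57.7 and 5.33 for Slc3a2.

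By library, the background expected for the 10 genes together was 0.484%, 11.6%, 11.7% and 1.13% of their counts in Hypoxia+Nitrate 1 to 4, and 57.7%, 27.4%, 44.2% and 41.2% in Hypoxia 1 to 4. In Hypoxia+Nitrate, counts were below the expected background for Slc3a1 in library 3, with 11 counts against 19.7 expected, and for Slc36a1 in library 2, with 50 counts against 71.2 expected. In Hypoxia, counts were at or below the expected background for Slc15a1 in library 3, Slc7a9 in libraries 1 and 4, Slc3a1 in library 1 and Slc36a1 in library 1, and these genes were not detectable over background in those libraries. The highest Hypoxia ratios of these genes were 1.93 for Slc15a1 and 2.52 for Slc7a9, both in library 2, 1.85 for Slc3a1 in library 3 and 1.84 for Slc36a1 in library 4. After background subtraction (limma-voom) none of the 10 passed. The log2 fold change was then 5.02 for Slc6a19 (SE 1.96, limma-voom adjusted p = 0.114), 1.01 for Slc3a2 (SE 0.407, limma-voom adjusted p = 0.124) and 1.87 for Slc7a7 (SE 0.851, limma-voom adjusted p = 0.161).

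**Figure D2:**
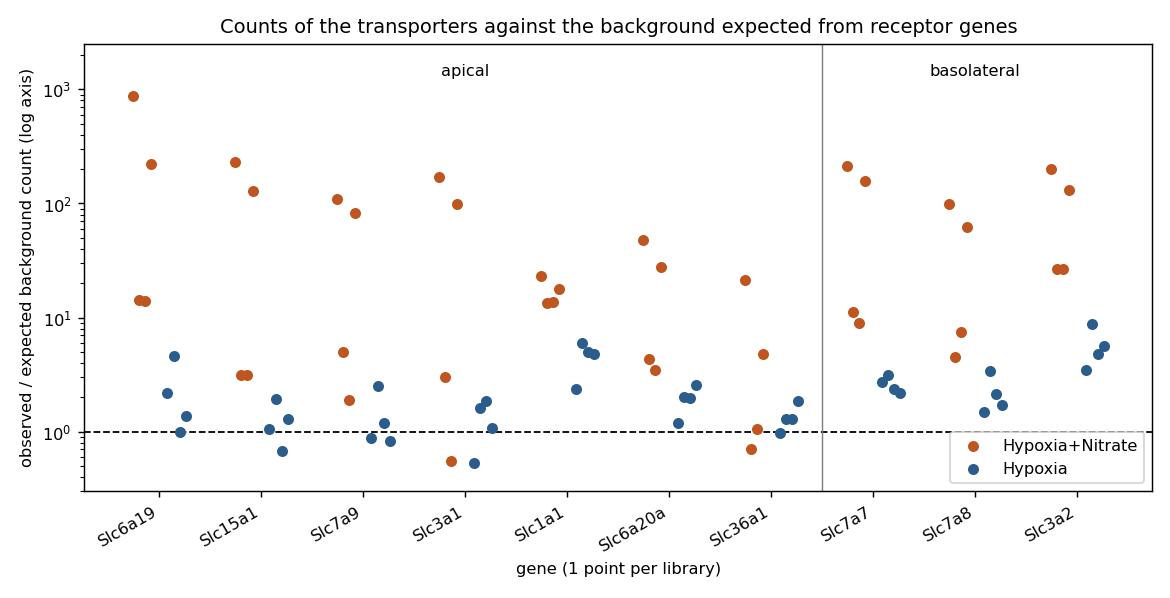
Count of each transporter divided by its expected background count, on a log axis, with 1 point per library and the dashed line at a ratio of 1. Hypoxia points of Slc15a1, Slc7a9, Slc3a1 and Slc36a1 reach the line or lie below it, while those of Slc1a1 and Slc3a2 lie between 2.37 and 8.74.

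Levels were compared between genes as CPM per kb of exon (mean ± SD, n = 4). In Hypoxia+Nitrate the mean was 64.0 ± 83.4 for Slc6a19, 27.1 ± 11.4 for Slc3a2, 21.9 ± 18.2 for Slc7a7 and 20.6 ± 22.7 for Slc15a1. Slc6a19 was first in Hypoxia+Nitrate 1 and 4, while in 2 and 3 Slc3a2 was first, at 19.1 and 17.2, and Slc6a19 second, at 10.3 and 9.003. Slc7a9, Slc3a1 and Slc7a8 were close together at 11.7 ± 10.9, 11.3 ± 12.6 and 10.8 ± 8.34. The lowest in Hypoxia+Nitrate were Slc1a1 at 4.68 ± 1.90, Slc6a20a at 4.67 ± 3.03 and Slc36a1 at 1.69 ± 1.88. Each neighbouring pair in the order of the means differed by less than the larger SD of the pair. The genes were measured in the same libraries, and Slc6a20a was above Slc36a1 in each Hypoxia+Nitrate library. In Hypoxia the order was different, with Slc3a2 first in each of the 4 libraries at 5.69 ± 1.44 CPM per kb and Slc1a1 next at 3.15 ± 0.816, a gap wider than either SD. Slc7a7, Slc6a19 and Slc7a8 followed at 2.52 ± 0.422, 2.30 ± 1.34 and 2.22 ± 0.585. The remaining 5 genes lay between 0.951 ± 0.424 (Slc3a1) and 1.71 ± 0.448 (Slc6a20a), close to the level of the receptor genes, which was 0.872 to 1.21 CPM per kb in Hypoxia and 0.210 to 0.720 CPM per kb in Hypoxia+Nitrate.

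Between the groups, the 7 apical genes had a median log2 fold change of 3.11 with 4 of 7 higher, and the 3 basolateral genes 2.29 with 3 of 3 higher. The order of these medians depended on scaling and libraries. The apical median was 0.98 and the basolateral median 1.24 with library size only, 2.01 and 2.19 with limma-voom, and 0.84 and 1.43 without Hypoxia+Nitrate 1 and 4. Apical and basolateral carriers were therefore also compared within each library, where scaling between libraries has no effect. Summed counts per kb of the apical genes were 2.88, 0.925, 0.774 and 1.61 times those of the basolateral genes in Hypoxia+Nitrate 1 to 4, and 1.08, 1.15, 1.17 and 1.25 times in Hypoxia 1 to 4. On these counts Hypoxia+Nitrate 1 and 4 lay above the Hypoxia range and 2 and 3 below it. With the expected background subtracted, the ratios were 2.88, 0.840, 0.681 and 1.61 in Hypoxia+Nitrate 1 to 4, and 0.508, 0.915, 0.755 and 0.868 in Hypoxia 1 to 4, so that Hypoxia+Nitrate 2 and 3 lay inside the Hypoxia range. Slc6a19 made up 61.9%, 37.5%, 42.6% and 40.4% of the apical sum in Hypoxia+Nitrate 1 to 4, and 26.8%, 26.6%, 9.44% and 11.9% in Hypoxia 1 to 4. With Slc6a19 left out the apical sum was 1.10, 0.579, 0.444 and 0.961 times the basolateral sum in Hypoxia+Nitrate 1 to 4, and 0.793, 0.846, 1.06 and 1.10 times in Hypoxia 1 to 4.

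The groups were also compared on 3 ratios of an apical to a basolateral gene of like function. With 4 against 4 libraries, a ratio that differs alone among the 3 cannot reach an adjusted p below 0.0857. For neutral amino acids, the log2 ratio of Slc6a19 to Slc7a8 was 3.15, 1.67, 0.91 and 1.82 in Hypoxia+Nitrate 1 to 4, against 0.55, 0.43, −1.10 and −0.30 in Hypoxia 1 to 4. The groups did not overlap, with a difference of 1.99 (exact 2-sided permutation test, p = 0.0286, and 0.0857 adjusted by Benjamini-Hochberg). This p of 0.0286 is the smallest that 4 against 4 libraries can give. With the expected background subtracted, the difference was 3.51 and did not pass (exact permutation, adjusted p = 0.171). Slc6a19 counts were 1.00 and 1.38 times the expected background in Hypoxia 3 and 4. For the heavy chains, the log2 ratio of Slc3a1 to Slc3a2 averaged −2.76 ± 2.51 in Hypoxia+Nitrate and −2.64 ± 0.58 in Hypoxia (SD, n = 4 each, exact permutation p = 0.971, adjusted 0.971). Within Hypoxia+Nitrate it ran from −5.96 in library 3 to −0.67 in library 1. For the cationic light chains, the log2 ratio of Slc7a9 to Slc7a7 averaged −1.21 ± 0.62 in Hypoxia+Nitrate and −0.96 ± 0.57 in Hypoxia (SD, n = 4 each, exact permutation p = 0.6, adjusted 0.9). The signs of these last differences turned when the expected background was subtracted, to 1.05 for Slc3a1 to Slc3a2 and 2.76 for Slc7a9 to Slc7a7, and neither passed (exact permutation, adjusted p = 0.686 and 0.386).

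**Figure D3:**
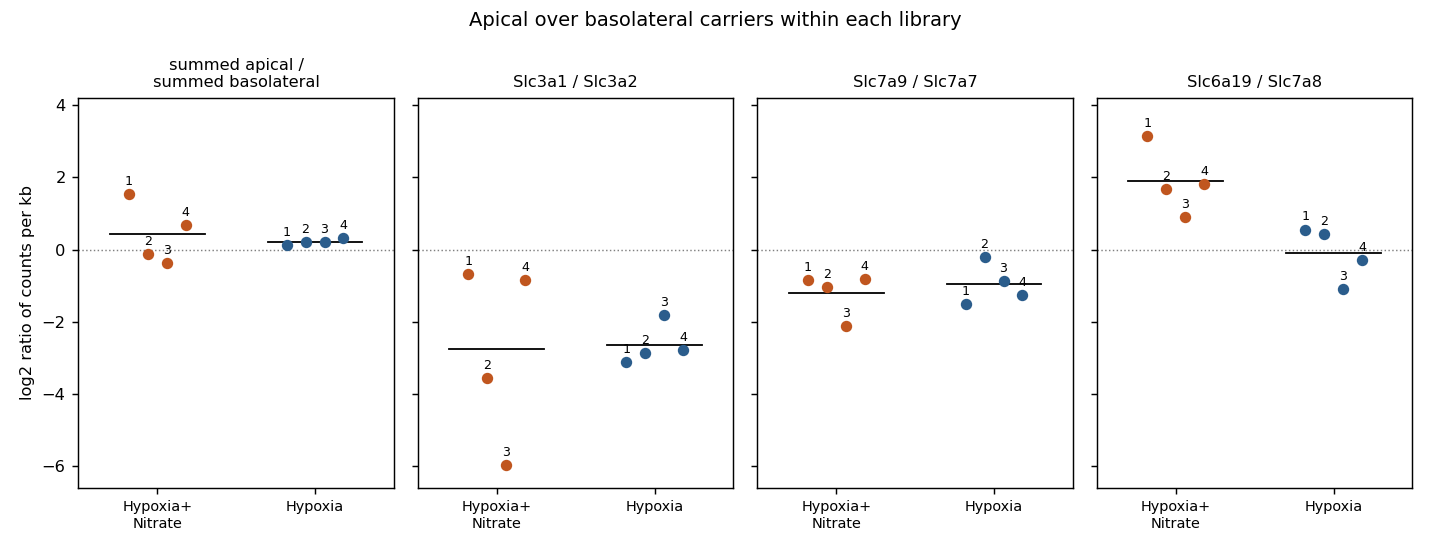
Apical over basolateral carriers within each library, as log2 ratios of counts per kb; points are libraries numbered by replicate and black lines are means of the plotted values (n = 4). The groups are apart for Slc6a19 over Slc7a8 and overlap in the other 3 panels.

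Proteins that work with these carriers were described from 5 genes, some others of the list being left out of the count. Of the 5, 3 rose, 0 fell and 2 did not pass, where 18.5% of nuclear protein-coding genes were called higher. Atp1b1, a subunit of the sodium pump that maintains the gradient for uptake, held 316, 15.7, 17.2 and 230.4 CPM in Hypoxia+Nitrate 1 to 4, against 5.34, 9.97, 3.43 and 4.52 CPM in Hypoxia 1 to 4. The groups did not overlap, and Atp1b1 rose by a log2 fold change of 4.64 (SE 1.05, edgeR adjusted p = 0.0126). Of the scaffold proteins, Slc9a3r1 rose by 6.46 and Pdzk1 by 5.73 (edgeR adjusted p = 0.0223 and 0.0163). Slc9a3r1 held 2467, 78.3, 64.3 and 3863 CPM in Hypoxia+Nitrate 1 to 4, against 8.08, 55.8, 3.90 and 5.60 CPM in Hypoxia 1 to 4. Pdzk1 held 280, 7.45, 6.04 and 530 CPM, against 2.67, 6.69, 3.32 and 2.83 CPM, in the same order, and its groups overlapped. For both genes Hypoxia+Nitrate 1 and 4 were far above 2 and 3. Slc9a3r1 was named after its values were seen. Slc9a3, the sodium-proton exchanger that supplies protons for peptide uptake, had a log2 fold change of −1.57 (SE 0.531, edgeR adjusted p = 0.0520), and Cltrn, the partner of B0AT1 in kidney, −0.70 (edgeR adjusted p = 0.540). Hypoxia counts of Slc9a3 and Cltrn were 1.48 and 1.34 times the expected background.

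Among 16 other amino acid carriers of the gut epithelium or of most cells, 15 were tested, 3 rose, 1 fell and 11 did not pass, with a median log2 fold change of 0.06. The share that rose was close to the 18.5% of nuclear protein-coding genes called higher. Slc38a2, a sodium-coupled carrier of small neutral amino acids, rose by 1.81 (SE 0.416, edgeR adjusted p = 0.0132). Slc6a6, the taurine carrier, rose by 2.64 (SE 0.617, edgeR adjusted p = 0.0141). Slc43a2 (LAT4), a basolateral uniporter of branched-chain and aromatic amino acids, rose by 2.64 (SE 0.775, edgeR adjusted p = 0.0318). It held 113, 13.8, 12.9 and 96.7 CPM in Hypoxia+Nitrate 1 to 4, against 11.8, 12.9, 8.70 and 4.40 CPM in Hypoxia 1 to 4, and the groups overlapped. Slc43a2 was named after its values were seen. Slc7a5 (LAT1), a large neutral amino acid exchanger, had a log2 fold change of −1.14 (SE 0.527) and missed the threshold (edgeR adjusted p = 0.128). Slc38a5, a glutamine carrier, fell (edgeR adjusted p = 0.0189), with 0.142, 0, 0 and 0 CPM in Hypoxia+Nitrate 1 to 4, against 0.935, 1.45, 2.53 and 0.783 CPM in Hypoxia 1 to 4. In Hypoxia, Slc38a5 stood at 1.25 times its expected background, and the fitted fold depends on the prior count.

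Of 13 amino acid carriers known mainly from brain, liver or kidney, all 13 were tested, 0 rose, 0 fell and the median log2 fold change was −1.53. With no call by edgeR at an adjusted p of 0.05, 5 had an unadjusted p under 0.05, all with negative fold changes. Over all genes tested, 14442 of 35431 had an unadjusted p under 0.05 in either direction, and 5 of 13 is near that share. The part of the 14442 with negative fold changes was not counted, so the 5 cannot be compared by direction. The lowest p-values belonged to Slc6a15, a brain carrier of branched-chain amino acids and proline (log2 fold change −1.91, SE 0.712, edgeR adjusted p = 0.0714), and Slc6a18, a kidney carrier of neutral amino acids (log2 fold change −2.49, SE 0.966, edgeR adjusted p = 0.0806). Their Hypoxia counts had a median of 1.58 times the expected background, between that of the apical transporters (1.35) and that of the basolateral ones (2.55). In Hypoxia+Nitrate the median was 1.30 for these 13 genes, against 24.9 for the apical and 50.2 for the basolateral transporters.

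**Figure D4:**
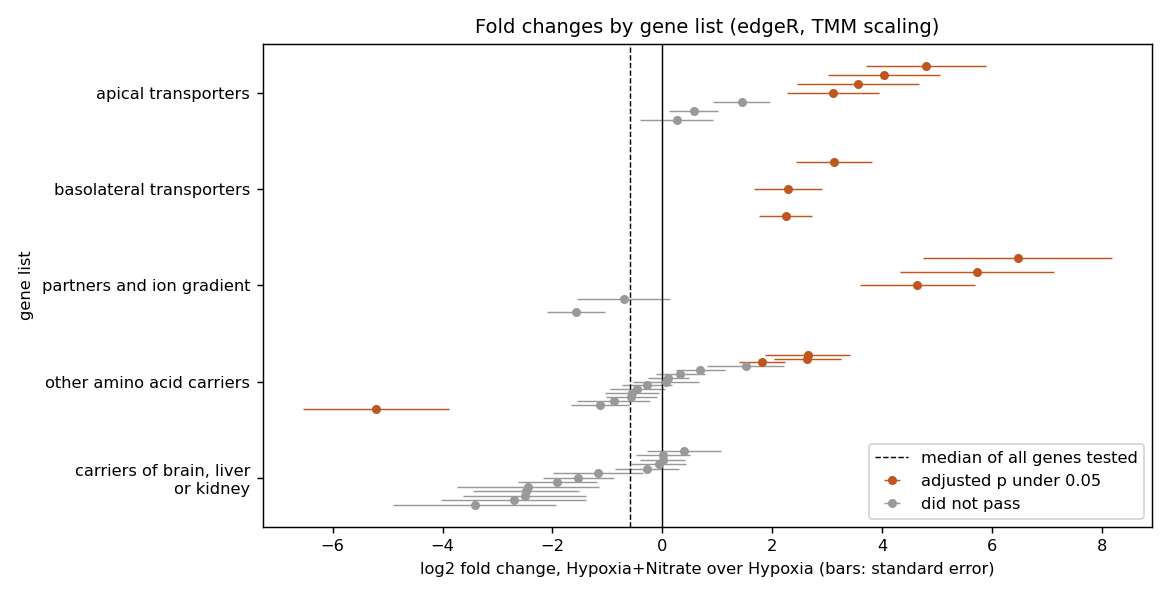
Log2 fold change of each gene, Hypoxia+Nitrate over Hypoxia, by gene list; bars are standard errors, orange points passed an edgeR adjusted p of 0.05 and the dashed line is the median of all genes tested (−0.58). All 7 transporter calls lie above 2, and the 13 carriers of brain, liver or kidney hold no call.

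The mean log2 CPM of the 10 transporters over the 8 libraries was most like that of Mgam, a brush border glucosidase (Pearson r = 0.998, the highest of 17109 protein-coding genes whose log2 CPM averaged 1 or more). Next were Clca4b (0.998), Bak1, a promoter of cell death (0.996), Por, the electron donor of cytochrome P450 enzymes (0.996), and Slc5a4b (0.996). The 8 points share library depth, scaling and background level and fall into 2 groups, so these values are a description only.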

How the data were processed

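The authors deposited a table of raw read counts for 55421 genes in 8 libraries. Per the submitters' processing notes, HISAT, featureCounts 1.5.0-p3, DESeq 1.8.3 and build GRCm38 were used, and per the labels' protocols the library kit was stranded. The strand setting used for counting is not stated there. The deposited per-library count files held the same values as the table, and no pair of libraries was a duplicate.

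Counts were tested in edgeR 4.0.16 (R 4.3.3) with the quasi-likelihood test after filterByExpr (minimum count 10, minimum total 15) and TMM scaling, which left 35431 genes, with Benjamini-Hochberg adjustment over all of them. Alternatives used limma 3.58.1 and DESeq2 1.42.0, other scalings and filters, a replicate block, libraries left out, and background subtracted or as a covariate. The procedure was tested on simulated data. Expected background was the receptor genes' counts per kb of exon free of other genes, times the length of the gene's own exons free of other genes. For genes on the X and Y chromosomes it was multiplied by 0.5. This factor presumes male mice, and the labels used here leave out sex. In female mice the expected background of X genes would be higher, and their ratios over background lower. Gene models came from GENCODE M21 (55240 of the IDs matched), and promoters from RefSeq. Ratios of counts per kb used a pseudocount of 0.5 and exact 2-sided permutation tests over 70 splits. Apart from all 10 transporters, the genes named were the 2 with the lowest p in each direction of a list, and the 5 genes most like the transporters' mean log2 CPM. Slc43a2 and Slc9a3r1 fall outside this rule and were named after their values were seen. The transporters and the lists were chosen with earlier results of these data known. Some genes of the list of proteins that work with the carriers are not reported here and were left out of its counts.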

Additional observations from a re-analysis of the deposited data

Results flagged for a closer look

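Slc36a1 had 25.22 CPM (TMM-scaled) in Hypoxia+Nitrate 1, far from the other 3 libraries of its group, which lay between 2.84 and 6.24 CPM. The gap to the nearest of them was 0.848 of the group's range. Hypoxia+Nitrate 1 also had the largest total count and mitochondrial share, and the part of these in the value was not tested. Chance passes this criterion in about 1 in 20 groups, and it was applied to 28 groups, of which 1 passed.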

How the results depend on the processing

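The test called 8653 genes, of which 48.1% were higher, against 35.0% with RLE and 34.4% with upper-quartile scaling. It called 1800 genes with library size only (13.5% higher), 16708 with no filter, 14689 with DESeq2, 15818 with limma-voom, 4227 without Hypoxia 1 and 2, 2020 with background subtracted and 0 with background as a covariate (edgeR, 2640 at an unadjusted p under 0.05). Leaving out 1 library gave 1932 to 22454 genes and 0 to 8 transporters. Of the transporters, 0 passed with library size only, without Hypoxia 1 and 2, with background subtracted or with the covariate, and 3 without Hypoxia+Nitrate 1 and 4. In the same order, 0.686%, 1.51%, 4.23%, 0% and 10.1% of all genes tested were called higher. The replicate block called 4791 genes and 3 transporters, with 6.14% of all genes tested called higher. Correlations of deviations between samples of the same number were 0.101, −0.203, 0.240 and −0.07. With 4 libraries in each group, these values cannot decide whether the numbers pair the samples, and the labels state no pairing.

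With the covariate, the log2 fold change turned to −1.39 for Slc15a1, −3.15 for Slc3a1, −0.83 for Slc6a20a, −0.78 for Slc7a8, −1.12 for Slc7a9 and −2.75 for Slc36a1. With background subtracted, it was −0.65 for Slc1a1 and −1.13 for Slc36a1. Slc6a20a was at −0.0296 with library size only. Slc36a1 was at −0.11 with upper-quartile scaling, −1.48 with library size only, −0.32 with limma-voom, −0.34 with the block, −0.14 with nuclear protein-coding genes only, −1.15 without Hypoxia+Nitrate 1 and 4, and −0.87 to 0.71 with 1 library left out. DESeq2 gave it no adjusted p. The difference in log2 ratio ran from −0.81 to 0.96 for Slc3a1 to Slc3a2, from −0.43 to 0.0603 for Slc7a9 to Slc7a7 and from 1.57 to 2.31 for Slc6a19 to Slc7a8 with 1 library left out. With background subtracted the differences were 1.05, 2.76 and 3.51 in the same order. The cause of these changes was not tested. Slc3a2 and Slc7a7 each kept their call in 16 of 21 alternatives, and Slc3a1 in 7. Low counts over a high background limit what the Hypoxia libraries can show.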

Other observations

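Set against the enterocyte markers, the 10 transporters summed to 3.91%, 10.3%, 17.1% and 1.91% of the markers' CPM in Hypoxia+Nitrate 1 to 4, and to 35.0%, 15.7%, 178% and 198% in Hypoxia 1 to 4. Hypoxia 3 and 4 thus held more transporter than marker counts, and in them the markers summed to 56.2 and 51.1 CPM. Slc1a1 alone made up 1.10%, 23.9%, 28.5% and 2.23% of the apical sum per kb in Hypoxia+Nitrate 1 to 4, and 19.9%, 23.6%, 32.1% and 28.2% in Hypoxia 1 to 4.

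Among markers of gut regions, 2 of 4 ileum genes and 1 of 5 proximal small intestine genes rose, where 18.5% of nuclear protein-coding genes were called higher. Ileum genes summed to 55.8 to 904 CPM in Hypoxia+Nitrate and 10.4 to 21.9 CPM in Hypoxia. Proximal genes summed to 38.3 to 375 CPM in Hypoxia+Nitrate and 35.7 to 51.4 CPM in Hypoxia, with Hypoxia+Nitrate 2 and 3 inside the Hypoxia range. None of the 5 acinar pancreas, 3 liver or 2 tested fat genes passed in edgeR. Liver genes were present in both groups, summing to 83.2 to 190 CPM in Hypoxia+Nitrate and 41.7 to 136 CPM in Hypoxia. Of these, Alb stood at 110 times its expected background in Hypoxia+Nitrate and 22.1 times in Hypoxia. Acinar genes summed to 6.31 to 12.0 CPM in Hypoxia+Nitrate and 8.81 to 13.8 CPM in Hypoxia, and fat genes to 9.22 to 24.8 and 9.48 to 15.0 CPM.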
